A study of Mus musculus with 15 samples.

Results

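The variable (V) gene segments of the mouse immunoglobulin loci were read in whole-blood RNA of 15 male wild-type C57Bl/6 mice aged 10 months. They were chosen by their counts in these same libraries, as the rows of the gene table with the biotype IG_V_gene and at least 10 counts in at least 7 of the 15 libraries. This left 71 of 218 annotated V segments, out of 55536 genes in all: 22 of 113 heavy chain segments (Ighv), 46 of 100 kappa light chain segments (Igkv) and all 3 lambda light chain segments (Iglv). Neither of the 2 V rows with another symbol reached the minimum. The group of 8 TBT mice had mothers exposed to the organotin compound tributyltin (TBT) through drinking water at 3.07 µM, a daily dose of 0.5 mg per kg, which ended when the pups were weaned. The group of 7 vehicle mice came from mothers given vehicle. The labels give both groups the same strain, sex, age and tissue, mark a liver tumor in vehicle 3 alone, and do not say which animals were littermates, so p-values measure the spread between these samples.

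Each developing B cell joins 1 V segment to a joining segment, and in the heavy chain also to a diversity segment, so a V segment is read in the RNA of the B cells that chose it. The joined exon is spliced to a constant exon such as Ighm or Igkc, and a light chain of either the kappa or the lambda kind pairs with the heavy chain. B cells carry this RNA for their surface receptor, and cells that secrete antibody hold far more of it per cell. In blood, V segment RNA therefore reads both the number of B lineage cells and which segments they use, and in bulk samples fewer cells of a type and less RNA per cell cannot be told apart.

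In GRCm38 (mm10), the Ighv members lie on chromosome 12 between 113588267 and 115953005, all on the minus strand. The Igkv members lie on chromosome 6 between 67609713 and 70699067, 18 of the 46 on the plus strand, and the Iglv members lie on chromosome 16 between 19085017 and 19260859 on the minus strand. V segments are built of a short leader exon and a V exon, and the annotated exons of each member sum to 347 to 425 bases. Of the members, 1 overlaps another annotated gene: the antisense gene 2010309G21Rik covers Iglv1 on the opposite strand, and with no strand setting given for the counting, their reads may not have been told apart.

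The 3 lambda segments are shown because they include the most abundant segment and differ in how far reads can tell them apart. The first 300 bases of each V exon are given 5′ to 3′ from the GENCODE M21 transcripts on the minus strand of GRCm38, Iglv1 at chr16:19085022-19085321, Iglv2 at chr16:19260406-19260705 and Iglv3 at chr16:19241231-19241530. Capitals mark the bases of Iglv2 and Iglv3 that differ from Iglv1 in a global alignment.
Iglv1: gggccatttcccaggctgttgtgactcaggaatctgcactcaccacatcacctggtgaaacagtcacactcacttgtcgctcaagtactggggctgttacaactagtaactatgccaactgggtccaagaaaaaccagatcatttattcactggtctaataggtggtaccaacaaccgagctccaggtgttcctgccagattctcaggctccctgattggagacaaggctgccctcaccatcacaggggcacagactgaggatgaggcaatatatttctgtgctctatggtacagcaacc
Iglv2: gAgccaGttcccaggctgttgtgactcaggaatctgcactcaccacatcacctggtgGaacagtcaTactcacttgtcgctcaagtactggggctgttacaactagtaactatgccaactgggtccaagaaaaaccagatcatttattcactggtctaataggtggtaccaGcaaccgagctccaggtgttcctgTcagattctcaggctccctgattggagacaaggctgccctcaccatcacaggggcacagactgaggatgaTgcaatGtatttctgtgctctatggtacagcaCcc
Iglv3: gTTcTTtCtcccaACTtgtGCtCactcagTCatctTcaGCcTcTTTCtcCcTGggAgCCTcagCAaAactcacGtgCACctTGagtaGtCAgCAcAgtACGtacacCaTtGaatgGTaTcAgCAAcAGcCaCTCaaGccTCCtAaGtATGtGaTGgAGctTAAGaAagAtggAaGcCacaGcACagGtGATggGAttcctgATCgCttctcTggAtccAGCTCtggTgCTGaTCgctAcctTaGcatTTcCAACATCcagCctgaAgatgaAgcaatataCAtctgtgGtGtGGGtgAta
Iglv2 matched Iglv1 at 296 of 305 aligned positions of the whole exon (97.0%), and Iglv3 matched Iglv1 at 177 of 328 (54.0%). Every 50-base stretch of the Iglv3 transcript was found in no other immunoglobulin V gene, against 77.8% of those of Iglv1 and 76.0% of those of Iglv2.

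Of the other chains, Ighv6-3, Ighv1-64 and Igkv1-135 are shown because single animals stood out in Ighv6-3 and Igkv1-135 and the smallest p of the segments fell on Ighv1-64. The first 300 bases of their V exons come from the same source, Ighv6-3 at chr12:114391722-114392021 and Ighv1-64 at chr12:115507550-115507849 on the minus strand and Igkv1-135 at chr6:67610196-67610495 on the plus strand of GRCm38. Capitals mark the last in-frame cysteine codon in the stretch printed. That codon lies near the end of the stretch in Ighv1-64 and Igkv1-135 but in its first part in Ighv6-3. The marks are therefore not the same position of the V exon.
Ighv6-3: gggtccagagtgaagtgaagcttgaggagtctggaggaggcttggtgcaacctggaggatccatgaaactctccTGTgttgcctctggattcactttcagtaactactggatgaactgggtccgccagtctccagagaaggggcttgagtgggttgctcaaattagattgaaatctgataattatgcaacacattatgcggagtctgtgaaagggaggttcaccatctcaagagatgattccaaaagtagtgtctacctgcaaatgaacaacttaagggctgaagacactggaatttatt
Ighv1-64: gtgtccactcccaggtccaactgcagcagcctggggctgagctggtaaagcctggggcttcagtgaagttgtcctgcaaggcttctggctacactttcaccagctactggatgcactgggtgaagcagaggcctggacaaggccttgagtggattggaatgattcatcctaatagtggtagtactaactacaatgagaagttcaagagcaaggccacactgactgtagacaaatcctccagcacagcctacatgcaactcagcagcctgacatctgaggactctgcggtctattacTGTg
Igkv1-135: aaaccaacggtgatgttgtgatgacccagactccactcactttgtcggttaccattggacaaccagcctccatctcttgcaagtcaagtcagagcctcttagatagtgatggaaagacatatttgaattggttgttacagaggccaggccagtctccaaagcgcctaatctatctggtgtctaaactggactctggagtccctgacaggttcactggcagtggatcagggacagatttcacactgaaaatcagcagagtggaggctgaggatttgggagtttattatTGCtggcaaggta
The closest V exons were Ighv6-6 for Ighv6-3 (92.6% identity), Ighv1-72 for Ighv1-64 (96.1%) and Igkv1-133 for Igkv1-135 (96.5%). Of their 50-base stretches, 86.0% were found in no other V gene for Ighv6-3, 66.6% for Ighv1-64 and 63.5% for Igkv1-135.

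Over all 218 V segments, the median share of 50-base stretches found in no other immunoglobulin V gene was 76.8% in the 71 members and 77.6% in the 147 segments below the count minimum. Within the heavy chain the medians were 79.1% in members and 77.7% in the others, and within the kappa chain 74.1% and 76.3%. Segments under 50% numbered 11 of 71 members and 21 of 147 others. Reads of such segments may have been left out or assigned to a close copy, so their levels are uncertain. The members held 70.7% to 82.2% of all V segment counts in TBT libraries and 77.2% to 79.5% in vehicle libraries.

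**Figure D1:**
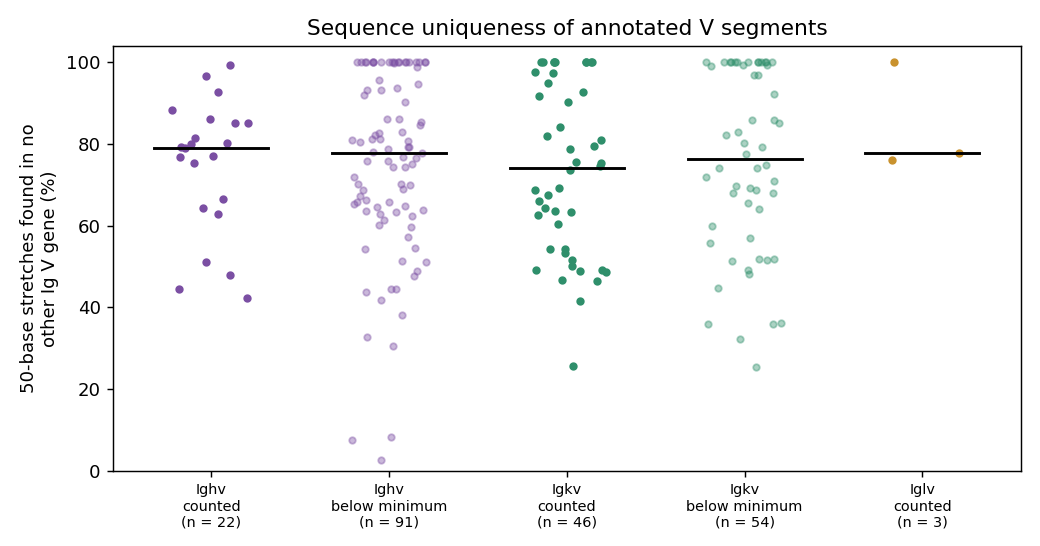
Each point is an annotated V segment, by chain and by whether it reached the count minimum, the vertical axis is the percentage of its 50-base stretches found in no other immunoglobulin V gene, and black lines are medians. Counted segments run from 25.7% to 100% and those below the minimum from 2.58% to 100%, with medians of 79.1% and 77.7% for Ighv and 74.1% and 76.3% for Igkv.

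The libraries held 8496060 to 11985305 counts in TBT and 6031530 to 10778347 in vehicle, and haemoglobin genes took 28.75% to 50.8% of them in TBT and 28.9% to 44.1% in vehicle. The V members took 217 to 2756 counts per TBT library and 733 to 2104 per vehicle library. These are the V counts below, and V rows under the count minimum are not in them. Levels are given as CPM, the counts of a gene relative to a library size scaled with TMM factors, which even out the typical gene between libraries. The libraries of TBT 2 and TBT 8 stood apart, with 217 and 399 V counts, TMM factors of 0.404 and 0.528 and summed platelet markers of 13862 and 13884 CPM, against 2307 to 4140 CPM in the other 6 TBT animals and 2493 to 6772 CPM in vehicle. Vehicle 6 had the lowest TMM factor of its group, 0.736, with vehicle 4 next at 0.807. It did not stand apart from its group as TBT 2 and TBT 8 did. Group sums, chain shares, usage, counts of segments and the main companion genes are therefore also given without TBT 2, TBT 8 and vehicle 6.

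At the edge of the count rule, 11 members had at least 10 counts in exactly 7 libraries, among them Igkv13-85 with 124 counts over all libraries and Igkv8-21 with 178. Igkv3-7, Igkv4-68 and Igkv6-13 had them in 6 libraries, with totals of 139, 142 and 127 counts, and were left out. Only 2 members, Iglv3 and Igkv6-15, reached 10 counts in all 15 libraries. In TBT 2, 4 members reached 10 counts and 12 had none.

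On TMM-scaled library sizes, the summed level of the V members was lowest in 3 TBT animals and highest in a vehicle animal, with overlap between the groups. The sum was 63.4 at the lowest, 119.8 at the median and 174 at the highest in TBT, against 128, 146 and 181 in vehicle. TBT 2 (63.4 CPM), TBT 8 (77.0 CPM) and TBT 3 (89.8 CPM) were the lowest of all, TBT 4 and TBT 5 also lay below every vehicle animal, and TBT 6 and TBT 7 lay above the vehicle median. The mean was 116 ± 37.8 CPM in TBT animals and 153 ± 20.1 CPM in vehicle animals (SD, n = 8 and 7), a difference in mean log2 level of -0.46 beside an SD between animals of 0.39. Without TBT 2, TBT 8 and vehicle 6 the means were 131 ± 29.3 and 154 ± 21.8 CPM (SD, n = 6 each). On library totals alone the means were 140 ± 83.8 CPM in TBT and 154 ± 37.1 CPM in vehicle (SD, n = 8 and 7). On that scale 4 of 8 TBT animals lay above the vehicle median. TBT 7 (275 CPM) and TBT 6 (211 CPM) then lay above every vehicle animal (at most 198 CPM), and TBT 4 and TBT 5 within the vehicle range. Without TBT 2, TBT 8 and vehicle 6 these means were 175 ± 61.0 and 162 ± 33.7 CPM, a difference of the other sign. A sum over members chosen with results known was described and not tested.

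On the TMM scale, TBT 2 was the lowest animal in each of the 3 chains. Ighv segments summed to 10.5, 24.3 and 36.0 CPM (lowest, median, highest) in TBT, against 26.8, 30.1 and 37.7 CPM in vehicle. Igkv segments summed to 41.2, 73.6 and 100.3 CPM in TBT, against 76.2, 91.5 and 119.75 CPM in vehicle. Iglv segments summed to 11.7, 21.9 and 38.2 CPM in TBT, against 21.02, 27.4 and 33.1 CPM in vehicle. The groups overlapped in each chain, with 2, 2 and 1 of 8 TBT animals above the vehicle median. With TBT 2, TBT 8 and vehicle 6 left out, Ighv segments averaged 27.3 ± 5.40 CPM in TBT and 31.8 ± 4.47 CPM in vehicle (SD, n = 6 each). Igkv segments then averaged 79.1 ± 17.4 and 94.8 ± 16.1 CPM, and Iglv segments 25.0 ± 7.53 and 27.4 ± 4.49 CPM, differences smaller than the SD of either group in each chain.

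**Figure D2:**
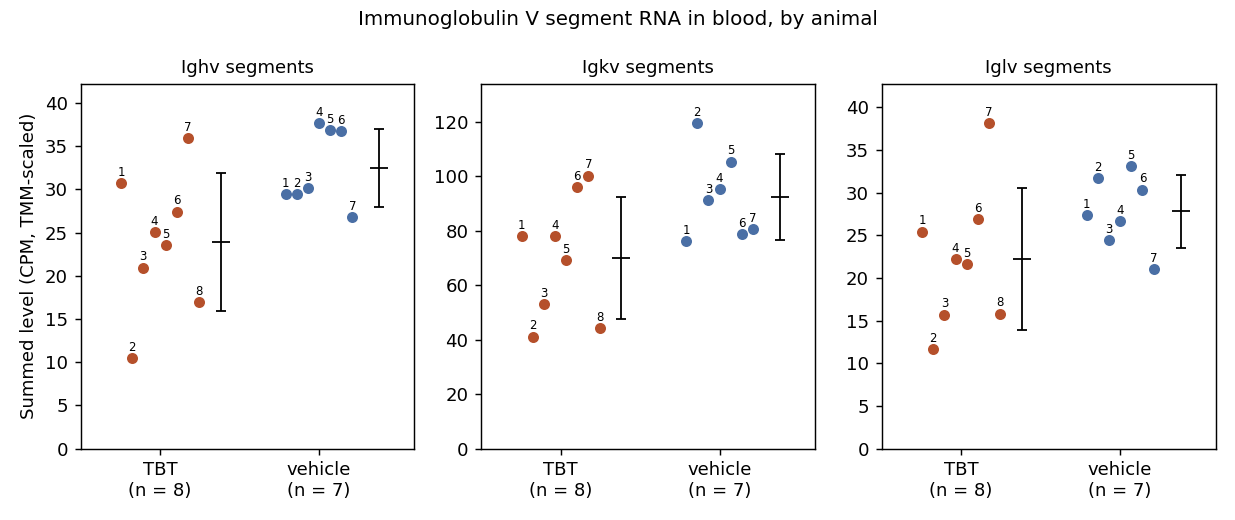
Points are animals, numbered within their group, the vertical axis is the summed level of the segments of a chain in CPM on TMM-scaled library sizes, and bars give the mean ± SD. TBT 2 is lowest in each panel (10.5, 41.2 and 11.7 CPM), and TBT 7 is highest of its group in each panel (36.0, 100.3 and 38.2 CPM).

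The make-up of the V counts by chain overlapped between the groups. Shares are of member counts, and the count rule kept 22 of 113 Ighv, 46 of 100 Igkv and all 3 Iglv segments. The lambda shares are therefore higher, and the kappa to lambda ratios of V counts lower, than over all V rows. Ighv segments took 20.6% ± 2.30 of V counts in TBT and 21.4% ± 2.79 in vehicle, Igkv segments 60.5% ± 2.94 and 60.4% ± 3.97, and Iglv segments 19.0% ± 1.52 and 18.2% ± 1.88 (SD, n = 8 and 7). Each difference was smaller than the SD within the groups, and 7 of 8 TBT animals had an Iglv share above the vehicle median. The differences in the Ighv and Igkv shares turned their sign without TBT 2, TBT 8 and vehicle 6. Ighv was then at 20.96% ± 1.90 in TBT and 20.76% ± 2.45 in vehicle, Igkv at 60.2% ± 2.46 and 61.4% ± 3.09, and Iglv at 18.8% ± 1.63 and 17.8% ± 1.64 (SD, n = 6 each). Vehicle 6 had the highest Ighv share (25.2%) and the lowest Igkv share (54.0%) of all animals. Without it alone the difference was -0.21 points for Ighv and -0.97 points for Igkv. The kappa to lambda ratio of V counts ran from 2.63 to 3.57 in TBT and from 2.60 to 3.83 in vehicle, and the ratio of Igkc to Iglc1, Iglc2 and Iglc3 counts, taken from the constant exons, ran from 2.94 to 4.08 in TBT and from 2.96 to 4.00 in vehicle.

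The lambda segment Iglv3 had the most reads per kilobase of all V segments in each of the 15 animals. Its mean level per length was 42.7 CPM per kb over all libraries, followed by Iglv1 (17.5 CPM per kb), Igkv10-96 (15.3), Igkv6-15 (15.1) and Igkv1-135 (13.7). The second segment per kilobase was Ighv6-3 in TBT 1 and was Iglv1, Igkv10-96, Igkv6-15 or Igkv1-135 in the other animals. The most abundant heavy chain segments were Ighv1-9 (7.52 CPM per kb) and Ighv6-3 (6.26 CPM per kb), below the 6 highest kappa segments, which reached from 8.17 (Igkv3-2) to 15.3 CPM per kb.

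Iglv3 took 12.2% to 14.3% of the V counts in TBT animals, against 9.82% to 13.3% in vehicle animals. The highest share was that of TBT 7, 394 of 2756 counts (14.3%, 95% Wilson interval 13.04% to 15.7%), and the lowest those of vehicle 4, 136 of 1385 counts (9.82%, 8.36% to 11.5%), and vehicle 7, 72 of 733 counts (9.82%, 7.87% to 12.2%). These intervals cover counting error only, as reads without molecular identifiers are not independent molecules. All 8 TBT shares lay above the vehicle median of 12.1%, and the shares of TBT 2 (13.4%) and TBT 7 lay above every vehicle animal. The share of TBT 2 rests on 29 of 217 counts (9.47% to 18.5%). These shares are of member counts, and the members held 70.7% of all V segment counts in TBT 8 and 82.2% in TBT 2. In TBT 8, 165 further counts lay in V rows below the count minimum, so shares of all V segment counts can rank the animals differently. The mean share was 12.8% ± 0.706 in TBT and 11.6% ± 1.35 in vehicle (SD, n = 8 and 7), a gap of 1.17 points. It was 12.7% ± 0.789 in TBT and 11.3% ± 1.24 in vehicle without TBT 2, TBT 8 and vehicle 6 (SD, n = 6 each). Its level was 14.9 ± 5.32 CPM in TBT and 17.8 ± 3.57 CPM in vehicle, a log2 fold change of -0.24 (SE 0.193) that did not pass the test over all genes (edgeR adjusted p = 0.920).

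The evenness of segment usage did not separate the groups beyond their spread. With the V counts of each animal thinned to 217, the total of TBT 2, the effective number of segments (the inverse Simpson index) was 26.8 ± 1.71 in TBT and 27.9 ± 2.12 in vehicle (SD, n = 8 and 7). It ran from 23.9 in TBT 7 to 28.9 in TBT 6, and from 26.02 in vehicle 7 to 31.9 in vehicle 4. At that depth 60.1 ± 1.72 of the 71 segments had a count in TBT and 60.2 ± 2.85 in vehicle. With TBT 2, TBT 8 and vehicle 6 left out, the effective number was 27.2 ± 1.82 in TBT and 28.03 ± 2.28 in vehicle, and the segments with a count numbered 60.8 ± 0.715 and 59.8 ± 2.96 (SD, n = 6 each), a difference of the other sign. Unthinned, 4 to 69 segments reached 10 counts in TBT and 24 to 67 in vehicle.

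The comparison of TBT with vehicle asks which segments differ in grown sons of exposed mothers. Of the 71 members, 67 passed the filter on low counts and were tested in the fit over all genes. Igkv5-48, Igkv13-85, Igkv8-27 and Ighv1-82 did not, with mean levels of 0.541 (Ighv1-82) to 0.802 CPM (Igkv8-27) in TBT and 0.792 (Igkv8-27) to 1.28 CPM (Ighv1-82) in vehicle. Over all 13364 genes tested, edgeR called 0 at an adjusted p under 0.05 (0%), and 0 of the 67 segments, whose smallest adjusted p was 0.683. DESeq2 called 19 of these genes (0.142%) and limma-voom 22 (0.165%), and both called 0 segments. At an unadjusted p under 0.05 in edgeR there were 10 segments, all lower in TBT (14.9%), against 1.76% of all genes lower and 4.57% higher. Negative log2 fold changes were found in 60 of the 67 segments (89.6%), against 40.6% of all genes, and positive ones in 7, against 59.4%, with a median of -0.33, against 0.05 over all genes. Segments read in the same animals share the B cells of those animals and are not independent of each other. In DESeq2, 13 segments were lower at an unadjusted p under 0.05 (19.4%), against 2.49% of all genes, and 61 of 67 were negative (91.0%, against 40.5% of all genes). In limma-voom, 9 were lower at that level (13.4%), against 9.17% of all genes, and 51 were negative (76.1%, against 46.0% of all genes). With library totals in place of TMM factors, 45 of the 67 were negative (67.2%, against 24.2% of all genes, median -0.14, against 0.14 over all genes) and 0 were lower at an unadjusted p under 0.05, against 0.232% of all genes. Without TBT 2, TBT 8 and vehicle 6, 52 of 69 tested segments were negative (75.4%, against 47.2% of all genes, median -0.22, against 0.02). In that fit 5 segments were lower at an unadjusted p under 0.05 (7.25%), fewer than the 9.96% of all genes, and the adjusted test called 7 genes of 13590 (0.0515%) and 0 segments.

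**Figure D3:**
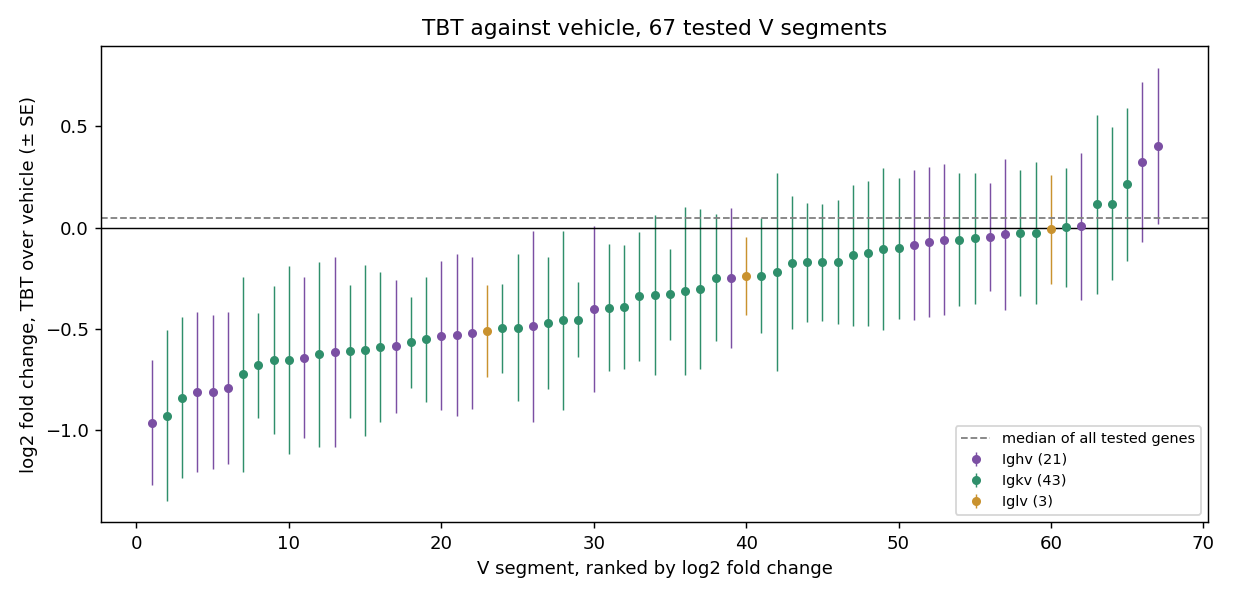
Each point is 1 of the 67 tested V segments, ranked by its log2 fold change (TBT over vehicle, edgeR, bars ± SE) and coloured by chain, and the dashed line is the median of all tested genes (0.05). The points run from -0.96 to 0.40, with 60 below 0, and the chains are mixed along the order.

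By chain, the log2 fold change was negative in 18 of 21 tested Ighv segments (median -0.49), 39 of 43 Igkv segments (median -0.33) and 3 of 3 Iglv segments (median -0.24), and with library totals alone in 13, 30 and 2 of them (medians -0.27, -0.14 and -0.00086). They were 14 of 21, 36 of 45 and 2 of 3 without TBT 2, TBT 8 and vehicle 6 (medians -0.19, -0.23 and -0.07). Over all genes 40.6% were negative (median 0.05), or 24.2% with library totals alone (median 0.14) and 47.2% without TBT 2, TBT 8 and vehicle 6. The difference between the chains was not tested. Members came from 9 of 16 Ighv families and 16 of 20 Igkv families. The largest Ighv family, Ighv1, held 12 members of its 53 rows and summed to 12.4 ± 4.97 CPM in TBT and 19.2 ± 2.48 CPM in vehicle (SD, n = 8 and 7), with all 11 tested members negative (median -0.53), or 9 with library totals alone. Igkv4, the largest kappa family, held 9 members of 26 rows and summed to 8.96 ± 2.49 CPM in TBT and 11.6 ± 2.36 CPM in vehicle, with 8 of 9 negative under either scaling. Igkv6 summed to 10.3 ± 2.74 and 14.2 ± 3.61 CPM with all 5 negative, or 4 with library totals alone, and Igkv12 to 2.32 ± 0.909 and 2.20 ± 1.03 CPM with 1 of 2 negative, or 0 with library totals alone.

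Of the heavy chain segments, Ighv1-64 had the smallest p. It was read at 0.386, 1.10 and 1.34 CPM (lowest, median, highest) in TBT, against 0.813, 2.22 and 2.77 CPM in vehicle. No TBT animal lay above the vehicle median, while vehicle 2 and vehicle 3 lay within the TBT range. The means were 0.967 ± 0.358 and 1.96 ± 0.772 CPM (SD, n = 8 and 7), a log2 fold change of -0.96 (SE 0.307, edgeR unadjusted p = 0.00567, adjusted p = 0.683).

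Ighv1-9, the most abundant heavy chain segment per length, was read at 2.07 ± 1.19 CPM in TBT and 3.29 ± 0.846 CPM in vehicle (log2 fold change -0.59), and had 0 counts in TBT 2. Ighv1-26 (1.30 ± 0.870 and 2.02 ± 0.737 CPM), Ighv8-12 (1.20 ± 0.718 and 1.94 ± 1.01 CPM) and Ighv1-81 (1.08 ± 0.715 and 1.61 ± 0.811 CPM) had log2 fold changes of -0.52, -0.53 and -0.40, and Ighv3-6 (1.10 ± 0.663 and 1.42 ± 0.367 CPM) one of -0.25. The groups overlapped in each of them. Ighv1-22 (-0.05) and Ighv9-3 (0.01) stood close to 0, and both changed sign between scalings, to 0.10 with library totals for Ighv1-22 and to -0.0038 with RLE factors for Ighv9-3. Ighv10-3 was among the few with a positive value, 1.14 ± 0.732 CPM in TBT and 0.881 ± 0.363 CPM in vehicle (0.32).

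Ighv6-3 had the largest positive log2 fold change of the members, 0.40 (SE 0.385, edgeR adjusted p = 0.950), which rested on 1 animal. It was read at 7.61 CPM in TBT 1, against 0.824 to 2.87 CPM in the other 7 TBT animals and 1.32 to 2.91 CPM in vehicle. In TBT 1 it gave 88 of 1553 V counts (5.67%, 95% Wilson interval 4.62% to 6.93%), against 3.20% (2.33% to 4.38%) in TBT 3 and 1.99% (1.31% to 3.03%) in vehicle 6, the highest vehicle share. Of the 8 TBT animals, 7 had an Ighv6-3 share above the vehicle median (medians 1.45% in TBT and 1.22% in vehicle), and 3 had a CPM above it. Without TBT 1 the log2 fold change was -0.10. TBT 1 also had the highest levels of Igha, the constant region of IgA (62.9 CPM, against at most 42.9 in another TBT animal and 23.3 in vehicle), and of Jchain, which links IgA and IgM units (13.6 CPM, against at most 7.71 and 5.43 CPM). Not all plasma cell genes were high in TBT 1. Xbp1 was at 22.049 CPM there, the lowest of all animals. Sdc1 (2.594 CPM) and Irf4 (50.756 CPM) were the highest of the TBT group there, below the highest vehicle animal. Whether the Ighv6-3, Igha and Jchain readings come from the same cells was not tested.

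The kappa segments with an unadjusted p under 0.05 included 4 of the 6 highest per length, Igkv1-135, Igkv10-96, Igkv6-15 and Igkv17-127. Igkv1-135 was read at 1.74, 3.94 and 6.58 CPM (lowest, median, highest) in TBT, against 4.61, 5.96 and 11.03 CPM in vehicle, with 1 of 8 TBT animals above the vehicle median. Its means were 4.10 ± 1.67 and 6.87 ± 2.59 CPM (SD, n = 8 and 7) and its log2 fold change was -0.68 (SE 0.259, edgeR unadjusted p = 0.0173, adjusted p = 0.727). The high vehicle values were those of vehicle 2 (11.03 CPM, 6.10% of its V counts) and vehicle 7 (9.99 CPM, 7.78%), and the other 5 vehicle animals lay at 4.61 to 6.45 CPM.

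Igkv10-96 was read at 1.54, 4.49 and 7.12 CPM in TBT, against 4.99, 6.56 and 9.52 CPM in vehicle, a log2 fold change of -0.57 (SE 0.224). Igkv6-15 was read at 3.09, 4.30 and 5.77 CPM in TBT, against 3.74, 5.77 and 8.69 CPM in vehicle, a log2 fold change of -0.46 (SE 0.185). Igkv17-127 was read at 1.74, 2.79 and 3.56 CPM in TBT, against 2.77, 3.12 and 5.58 CPM in vehicle, a log2 fold change of -0.50 (SE 0.219). At most 2 of 8 TBT animals lay above the vehicle median in these 3 segments, the groups overlapped in each, and the adjusted p in edgeR ran from 0.731 to 0.743.

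Igkv5-39 (2.79 ± 0.915 CPM in TBT and 3.59 ± 0.967 CPM in vehicle) had a log2 fold change of -0.33, and Igkv3-2 (2.90 ± 1.72 and 3.30 ± 1.31 CPM) one of -0.13, or 0.13 with library totals alone. Positive values were found for Igkv12-44 (1.42 ± 0.717 and 1.25 ± 0.637 CPM, 0.21), Igkv2-109 (1.10 ± 0.408 and 1.04 ± 0.543 CPM, 0.12) and Igkv4-51 (1.00 ± 0.558 and 0.962 ± 0.572 CPM, 0.11). Their SE of 0.377 to 0.443 exceeded the differences, and none passed the test over all genes (edgeR adjusted p from 0.881 to 0.993 for these 5 segments).

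Of the lambda segments, Iglv1 was read at 2.63, 5.57 and 10.8 CPM in TBT, against 6.11, 8.45 and 9.92 CPM in vehicle, a log2 fold change of -0.51 (SE 0.227, edgeR unadjusted p = 0.0377, adjusted p = 0.745). TBT 7 was the highest of all animals, while 5 of the other 7 TBT animals lay below every vehicle animal. Iglv2, the near copy of Iglv1, was read at 1.65 ± 0.606 CPM in TBT and 1.73 ± 0.556 CPM in vehicle (SD, n = 8 and 7), a log2 fold change of -0.01 that was 0.19 with library totals alone. The difference between Iglv1 and Iglv2 was not tested.

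**Figure D4:**
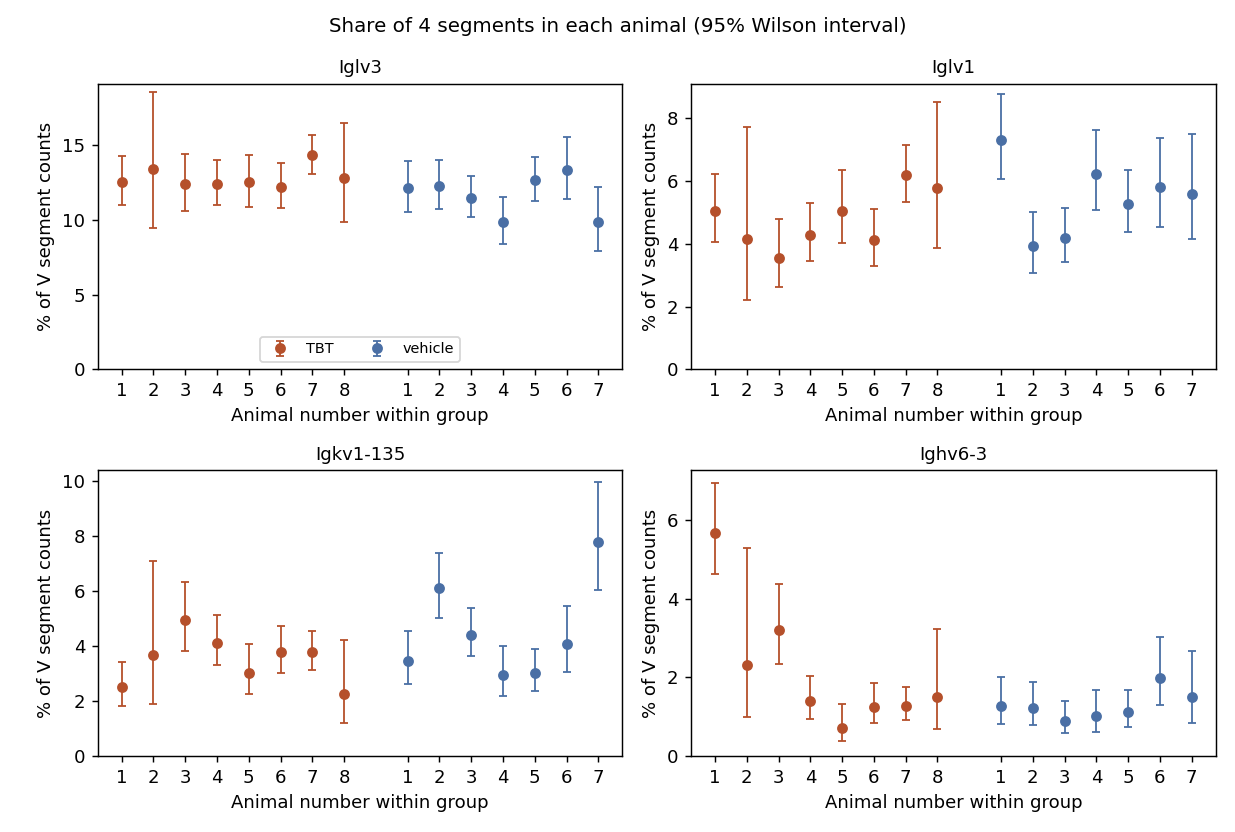
Points give the share of an animal's V counts taken by Iglv3, Iglv1, Igkv1-135 and Ighv6-3, in percent with 95% Wilson intervals, for the 8 TBT and then the 7 vehicle animals. Iglv3 stays between 9.82% and 14.3%, Igkv1-135 is highest in vehicle 7 (7.78%) and vehicle 2 (6.10%), and Ighv6-3 is highest in TBT 1 (5.67%).

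Genes of the cells that carry V segment RNA were set beside it. Of 24 B cell genes tested, 0 passed. A negative log2 fold change was found in 23 (95.8%, median -0.22), against 40.6% of all genes (median 0.05). With library totals alone 12 of 24 were negative (50%, median 0.0047), against 24.2% of all genes (median 0.14). Without TBT 2, TBT 8 and vehicle 6, 21 of 24 were negative (median -0.10), against 47.2% of all genes. The summed level of the B cell genes was 1509 to 3272.5 CPM in TBT and 2188 to 3052 CPM in vehicle, and none of the defining markers was at 0 in any library. Cd79a, a signalling chain of the B cell receptor, was read at 118 ± 36.6 CPM in TBT and 143 ± 16.8 CPM in vehicle (log2 fold change -0.27, SE 0.174, edgeR adjusted p = 0.872), and without TBT 2, TBT 8 and vehicle 6 at 130.3 ± 33.1 and 141 ± 17.5 CPM. Ms4a1, which encodes CD20, and Pax5, the B lineage factor, had log2 fold changes of -0.19 and -0.17. With library totals alone both stood at 0.07, against a median of 0.14 over all genes.

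V segment counts were also set against the counts of B cell genes in the same library. There were 97.7 ± 9.23 V counts per 100 Cd79a counts in TBT and 107 ± 11.5 in vehicle (SD, n = 8 and 7), with 1 of 8 TBT animals above the vehicle median. There were 141 ± 11.2 V counts per 1000 counts of Igkc and Ighm in TBT and 151 ± 8.51 in vehicle, with 1 of 8 above the vehicle median. Both ratios count the members only and are free of the library scaling, and in both the ranges of the groups overlapped. With TBT 2, TBT 8 and vehicle 6 left out, there were 101 ± 6.58 V counts per 100 Cd79a counts in TBT and 109.5 ± 10.96 in vehicle, and 146 ± 4.56 and 152 ± 8.68 per 1000 counts of Igkc and Ighm (SD, n = 6 each).

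Of 13 constant region genes listed, 9 were tested and 0 passed. A negative value was found in 7 (77.8%, median -0.26), against 40.6% of all genes (median 0.05). With library totals alone 5 were negative (55.6%, median -0.01), against 24.2% of all genes (median 0.14). Igkc, the kappa constant region, was read at 238 ± 70.3 CPM in TBT and 313 ± 41.1 CPM in vehicle (log2 fold change -0.39), Ighm, that of IgM, at 576 ± 161 and 700.4 ± 71.2 CPM (-0.28), and Iglc1, Iglc2 and Iglc3 had log2 fold changes of -0.51, -0.26 and -0.26, with Iglc2 at 0.0021 with library totals alone. Ighd, that of IgD, stood at -0.18, or 0.07 with library totals. Ighg3 stood at -0.31, Ighg2b at 0.35 and Igha at 0.70 (Igha SE 0.455, edgeR adjusted p = 0.872), or 0.34 for Igha without TBT 1. Igha was at 24.5 ± 19.8 CPM in TBT and 15.4 ± 5.85 CPM in vehicle. Its medians were 18.1 and 17.7 CPM, with 4 of 8 TBT animals above the vehicle median. Ighg1, Ighg2c, Ighe and Iglc4 were too low to be tested. Without TBT 2, TBT 8 and vehicle 6, Igkc was at 267 ± 53.8 CPM in TBT and 308 ± 42.6 CPM in vehicle, Ighm at 633 ± 135 and 705 ± 76.9 CPM and Igha at 30.7 ± 19.1 and 15.05 ± 6.31 CPM (SD, n = 6 each). In that fit 8 of 10 constant region genes tested were negative (median -0.14), against 47.2% of all genes.

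Of 14 plasma cell genes, 10 were tested and 0 passed. A negative value was found in 6 (60%, median -0.08), against 40.6% of all genes (median 0.05). With library totals alone 4 were negative (40%, median 0.05), against 24.2% of all genes (median 0.14). Jchain was read at 5.75 ± 3.71 CPM in TBT and 3.48 ± 1.56 CPM in vehicle (log2 fold change 0.77, SE 0.389, edgeR adjusted p = 0.814), or 0.45 without TBT 1. It was at 6.51 ± 4.00 CPM in TBT and 3.37 ± 1.67 CPM in vehicle without TBT 2, TBT 8 and vehicle 6, and the median of the 10 plasma cell genes was -0.04. Xbp1 (0.05), Irf4 (-0.04, or 0.13 with library totals alone), Prdm1 (-0.13) and Sdc1 (-0.25) lay nearer 0. Mzb1 and Tnfrsf17, which encodes a receptor of antibody-secreting cells, were too low to be tested, with Tnfrsf17 at 0 to 0.388 CPM in TBT and 0 to 0.277 CPM in vehicle. The part of B cell number, antibody-secreting cells and library scaling in the V segment values was not tested.

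**Figure D5:**
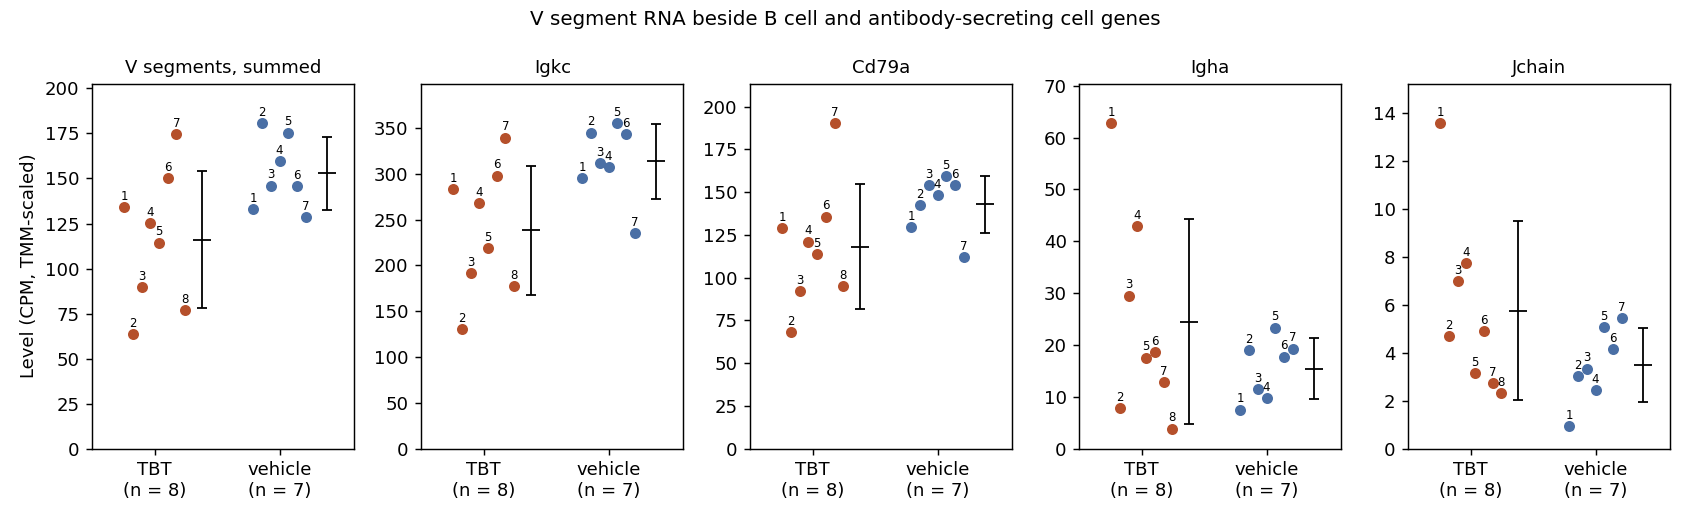
Points are animals, numbered within their group, with the mean ± SD, for the summed V segments and for Igkc, Cd79a, Igha and Jchain in CPM on TMM-scaled library sizes. TBT 2 is lowest for V segments, Igkc and Cd79a (63.4, 131 and 68.3 CPM), TBT 7 is highest for Cd79a (191 CPM), and TBT 1 is highest for Igha and Jchain (62.9 and 13.6 CPM).

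Genes of V(D)J recombination and of antibody mutation, which act in developing and in activated B cells, gave 16 tested of 19 listed, 10 with a negative value (62.5%, median -0.01), or 6 with library totals alone (37.5%, median 0.12), and 0 passed. Over all genes 40.6% were negative (median 0.05), or 24.2% with library totals alone (median 0.14). The recombinase genes were too low to be tested. Rag1 was at 0.193 to 1.82 CPM in TBT and 0.231 to 1.32 CPM in vehicle, with at least 10 counts in 4 libraries. Rag2 was at 0 in every TBT library and at most 0.350 CPM in vehicle. None of the 3 surrogate light chain genes, which mark precursor B cells, was high enough to be tested, and Vpreb1 did not exceed 0.247 CPM in TBT or 0.177 CPM in vehicle. The 3 genes of the octamer factors and their coactivator, which act at V promoters, had log2 fold changes of -0.10 to 0.14, or 0.10 to 0.31 with library totals alone, and the coactivator Pou2af1 is also on the B cell list. Of the lists for other blood cells, 0 genes passed. The medians were 0.04 for 16 T cell genes, 0.19 for 8 monocyte genes, 0.04 for 7 neutrophil genes, 0.03 for 8 platelet genes and 0.24 for 8 erythroid genes, or 0.18, 0.26, 0.20, -0.26 and -0.03 in that order with library totals alone. Without TBT 2, TBT 8 and vehicle 6 the platelet and erythroid medians were -0.83 and -0.51. Of 144 T cell receptor V segments 2 passed the filter on low counts, with log2 fold changes of -0.26 and 0.61.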

How the data were processed

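Whole-blood RNA of 15 animals was sequenced. The submitters' processing notes name Trim Galore, HISAT2, featureCounts and mm10, with no version, annotation or strand setting. The values deposited by the authors are raw whole-number counts per gene. V reads that cross the joint or carry mutations may align less well than others, and near-identical segments may share reads.

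Columns were matched to animals by description. Genes were kept with filterByExpr (13364 of 55536) and fitted with edgeR 4.0.16 in R 4.3.3 (TMM, robust glmQLFit and glmQLFTest, no covariate, Benjamini-Hochberg over all tested genes at 0.05). Levels are CPM on TMM-scaled library sizes. Fits on simulated data with known changes were checked. Alternatives were RLE factors, library totals alone, other low-count filters, DESeq2 1.42.0, limma 3.58.1 voom with quality weights, each animal left out, the replicate number as a block, and 3 libraries left out. Exon lengths and sequences came from GENCODE M21 (GRCm38), which held all 71 members. Intervals on shares are Wilson intervals. No 2 libraries of a group matched within sampling noise (chi-square per gene at least 10.8).

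Members and lists were chosen with earlier results of these data known. Named segments were the 8 Ighv, 6 Igkv and 3 Iglv with the highest mean CPM per kb, the 5 lowest p-values among lower and among higher segments, and the top segment per kb of each animal. Companion lists were immunoglobulin constant, B cell, plasma cell, V(D)J recombination and mutation, surrogate light chain, octamer factor, T cell, monocyte, neutrophil, platelet and erythroid genes. Promoters and recombination signals of the V segments were not analysed here, and 1 gene of the B cell list is not reported by itself.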

Additional observations from a re-analysis of the deposited data

Results flagged for a closer look

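Over 130 groups of values looked at, 8 single readings stood far from the rest of their group, and chance alone marks about 1 in 20 groups. In TBT, Ighv6-3 was at 7.61 CPM in TBT 1 (the next animal at 2.87 CPM) and Ighv1-22 at 0.292 CPM in TBT 2 (next 1.32 CPM). As a share of V counts, Igkv6-15 took 5.99% in TBT 2 (next 4.19%), Igkv17-127 3.23% in TBT 2 (next 2.38%), Igkv5-39 4.26% in TBT 8 (next 2.77%) and Ighv10-3 3.01% in TBT 8 (next 1.38%). In vehicle, Igkv5-39 took 3.82% in vehicle 7 (next 2.44%). TBT 8 had 116 V counts per 1000 counts of Igkc and Ighm (next 139). This ratio counts the members only, which held 70.7% of all V segment counts in TBT 8, the lowest share of all animals. Its 165 counts in other V rows are left out, so the reading depends on the count rule. TBT 2 and TBT 8 had 217 and 399 V counts in all, and vehicle 7 had 733, the fewest of its group.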

How the results depend on the processing

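Segments called numbered 0 in every alternative, while over all genes 19 were called with DESeq2, 22 with limma-voom, 7 without TBT 2, TBT 8 and vehicle 6, 2 with no low-count filter (of 41564), 1 with the replicate number as a block and 0 in the others. The median log2 fold change of the segments ran from -0.44 to -0.27 with each animal left out. Segments lower at an unadjusted p under 0.05 numbered 10 as reported, 0 with library totals alone, 5 without TBT 2, TBT 8 and vehicle 6, and 3 (without vehicle 5) to 13 (without TBT 7) with each animal left out. Over all genes the share lower at that level was 1.76% as reported, 0.232% with library totals, 9.96% without the 3 libraries and 1.35% (without vehicle 6) to 2.98% (without TBT 7) with each animal left out, against 4.41% (without vehicle 5) to 21.7% (without TBT 7) of the segments. With no low-count filter it was 7.60% of all genes and 16.9% of 71 segments. The number of segments moved by over 1.5 times without TBT 3 or TBT 4 (5 each), TBT 5, TBT 8, vehicle 2 or vehicle 6 (6 each) and vehicle 5 (3). The cause was not tested. Differences in level and usage between the groups moved by less than 1 SD in every alternative. A difference that is itself under 1 SD can turn its sign within that limit. With each animal left out, the difference in the Igkv share ran from -0.97 to 1.05 points. That in thinned segments with a count ran from -1.10 to 0.38, and the log2 difference in the summed V CPM from -0.55 to -0.34. With the replicate number as a block, 7 segments were lower at an unadjusted p under 0.05 (10.4%, against 2.42% of all genes). In that fit 57 of 67 were negative (85.1%, against 46.9% of all genes, with medians of -0.31 and 0.02). Same-numbered libraries correlated from -0.23 to 0.51 in their deviations from the group means, and 1 of 7 correlated best with its own number, so the numbers were not taken as pairs.

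Some log2 fold changes turned their sign. With library totals Ighv1-22 was 0.10, Igkv3-2 0.13, Iglv2 0.19 and Ighd 0.0721. With RLE factors Ighv9-3 was -0.0038, and with DESeq2 Ighv9-3 was -0.0043 and Iglv2 0.0025. With limma-voom Ighv1-22 was 0.0588 and Ighv10-3 -0.0759, and with the block Ighv10-3 was -0.007. Without TBT 2, TBT 8 and vehicle 6, Ighv1-22 was 0.0204, Ighv1-81 0.0037 and Iglv2 0.19. With each animal left out, Ighv6-3 ran from -0.10 to 0.53, Ighv1-22 from -0.15 to 0.0475, Ighv9-3 from -0.17 to 0.11, Igkv3-2 from -0.28 to 0.0175, Iglv2 from -0.13 to 0.0907, Igkv12-44 from -0.0485 to 0.41, Igkv2-109 from -0.04 to 0.30 and Igkv4-51 from -0.0289 to 0.30. The 217 V counts of TBT 2 limit what can be read of single segments there.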
